A study of Mus musculus with 2 samples.

Results

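The *Tas1r* genes encode the receptors for sweet and umami taste. The 3 members, *Tas1r1*, *Tas1r2* and *Tas1r3*, were taken by gene symbol from a deposited expression table of 18498 rows, of which 18043 carry a gene symbol, and all 3 were found, in 1 row each. The table compares 2 RNA-sequencing libraries of the mouse tongue, 1 of the circumvallate papillae (CvP), the trenched structures at the back of the tongue that hold many taste buds, and 1 of tongue epithelium without papillae (Epi). Both came from male C57BL/6J mice of 12 to 30 weeks on normal chow, for which the labels name no edited gene or treatment, and RNA of at least 20 mice was pooled for each library. Each tissue therefore had 1 library and no replicate. The samples were whole tissue in which taste cells are one part, so that fewer cells of a type and less RNA per cell cannot be told apart. The values are RPKM, read counts scaled by the kilobases of exon in a gene and by the depth of the library, and depths of about 28374669 mapped reads for the CvP and 27900913 for the Epi were estimated from the steps between low RPKM values. Intervals are 95% exact intervals from estimated reads. They cover counting error only, not the spread between mice or preparations, and reads amplified by PCR are not independent molecules.

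T1R proteins are G-protein-coupled receptors of class C, with a large extracellular domain that binds ligands, and they work in pairs. T1R2 pairs with T1R3 to detect sugars and sweeteners, and T1R1 pairs with T1R3 to detect L-amino acids such as glutamate, whose effect 5′ ribonucleotides enhance. T1R3 is thus the shared partner. In type II taste cells the receptors act through G proteins that include gustducin, then through phospholipase C, calcium release and the cation channel TRPM5, and the cell signals to the nerve by releasing ATP.

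All 3 genes lie on chromosome 4. On NCBI37/mm9, the build of the table, *Tas1r2* (Entrez Gene 83770) runs from 139209453 to 139226194 on the plus strand, *Tas1r1* (110326) from 151402023 to 151412599 on the minus strand, and *Tas1r3* (83771) from 155233379 to 155237462 on the minus strand. The lower ends of the genes were 12.19 Mb apart for *Tas1r2* and *Tas1r1* and 3.83 Mb apart for *Tas1r1* and *Tas1r3*, so the genes are not close neighbours. In the GENCODE M1 annotation each has a coding transcript of 6 exons. The reading frames have 842 codons before the stop in *Tas1r1*, 843 in *Tas1r2* and 858 in *Tas1r3*. The transcripts differ enough that a read of one member can be told from the other members, and other genes were not part of this comparison. None of the 2789, 2973 and 3449 windows of 75 bases, the read length, in the transcripts of *Tas1r1*, *Tas1r2* and *Tas1r3* came within 2 mismatches of another member, and the closest pair of windows differed at 20 bases.

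The 250 bases before each start site are shown because all 3 genes were higher in the CvP, so that a reader can set their upstream sequences side by side. They are RefSeq sequences of GRCm38.p6, another build than that of the table, at chr4:152038491-152038740 (minus strand) for *Tas1r1*, chr4:139653288-139653537 (plus strand) for *Tas1r2* and chr4:155863354-155863603 (minus strand) for *Tas1r3*. Capitals mark the E-box CANNTG and the letters TGCAAAT.
Tas1r1: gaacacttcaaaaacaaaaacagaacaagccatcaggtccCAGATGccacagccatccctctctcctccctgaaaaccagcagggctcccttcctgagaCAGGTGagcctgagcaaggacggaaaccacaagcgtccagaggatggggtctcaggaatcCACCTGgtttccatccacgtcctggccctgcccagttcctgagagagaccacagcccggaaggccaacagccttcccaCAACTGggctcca
Tas1r2: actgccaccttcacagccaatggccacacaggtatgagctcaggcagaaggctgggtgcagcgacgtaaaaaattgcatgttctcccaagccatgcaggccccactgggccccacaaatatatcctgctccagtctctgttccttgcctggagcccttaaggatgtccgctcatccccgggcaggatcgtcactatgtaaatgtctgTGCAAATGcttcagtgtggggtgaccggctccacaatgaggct
Tas1r3: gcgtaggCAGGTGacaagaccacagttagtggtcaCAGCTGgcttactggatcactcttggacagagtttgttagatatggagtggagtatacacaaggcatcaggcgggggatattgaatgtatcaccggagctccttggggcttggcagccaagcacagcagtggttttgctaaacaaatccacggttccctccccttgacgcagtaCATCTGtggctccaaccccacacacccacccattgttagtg
The GC content of these stretches was 57.2% in *Tas1r1*, 55.2% in *Tas1r2* and 52.4% in *Tas1r3*, against a median of 52.0% over 27025 mouse promoters of the same length. The motifs were searched on both strands. CANNTG, the E-box of basic helix-loop-helix factors, occurred 4 times in *Tas1r1*, 1 time in *Tas1r2* and 3 times in *Tas1r3*, and 66.0% of all promoters hold it at least once. ATGCAAAT, the octamer recognised by POU factors such as the type II cell factor POU2F3, was in none of the 3 stretches, and 1.61% of all promoters hold it. Its last 7 letters, TGCAAAT, occurred once, at base -43 of *Tas1r2*, where they overlap the E-box at base -41, and 3.48% of promoters hold them. That shorter motif was chosen after the sequences had been read. The TATA box TATAAA was in none of the 3 and in 13.0% of all promoters, and CCAAT was found once, at base -234 of *Tas1r2*, against 34.5% of promoters. These matches describe letters and not binding.

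*Tas1r3*, the shared subunit, had an RPKM of 25.31 in the CvP against 0.70 in the Epi, or about 2530 and 69 reads. *Tas1r2*, the sweet-specific subunit, had an RPKM of 20.29 in the CvP against 0.01 in the Epi, or about 1754 reads and 1 read. *Tas1r1*, the umami-specific subunit, had an RPKM of 3.69 in the CvP against 0.16 in the Epi, or about 292 and 12 reads. Each gene was thus far higher in the papillae than in the surrounding epithelium, and the level in the epithelium was lowest for the sweet-specific subunit. The CvP/Epi ratio was 36.2 for *Tas1r3* (interval 28.4 to 46.5, log2 ratio 5.18) and 23.1 for *Tas1r1* (13.5 to 46.8, log2 ratio 4.53), and these intervals overlap. For *Tas1r2* the ratio was 2029 (log2 ratio 10.99), with an interval from 309 to 68160 because a single Epi read stands behind it. This quotient is approximate, since the Epi RPKM of 0.01 is a rounded value and 1 read is worth 0.0118. The lower limit for *Tas1r2* lay above the upper limits of *Tas1r1* and *Tas1r3*. With a pseudocount of 1 RPKM added to both values the ratios of *Tas1r1*, *Tas1r2* and *Tas1r3* were 4.04, 21.1 and 15.5, so all 3 remained above 3.

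**Figure D1:**
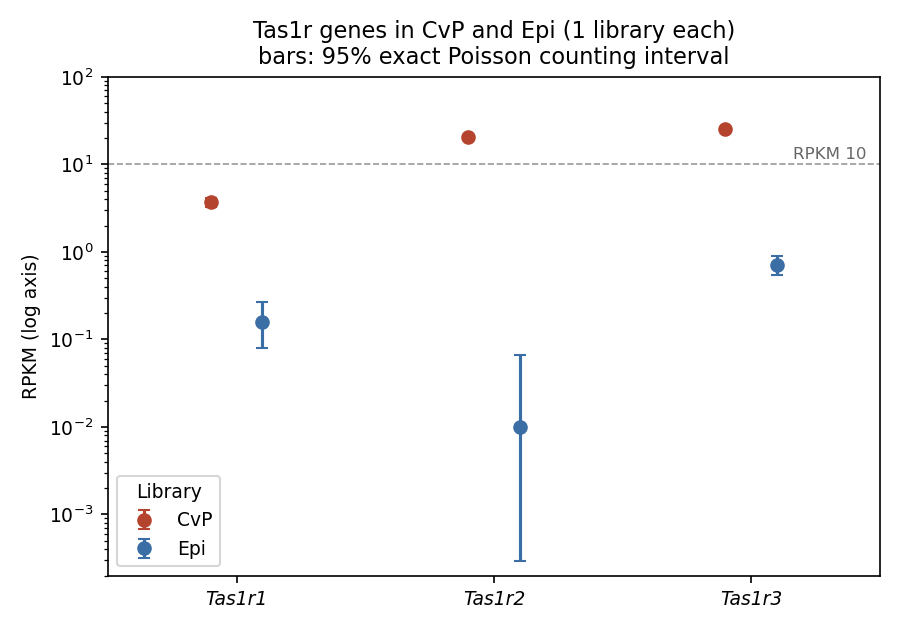
RPKM (log axis) of the 3 *Tas1r* genes in the CvP library (red) and the Epi library (blue), with 1 library per tissue and bars for the 95% exact Poisson interval of the estimated reads. The CvP values are 3.69, 20.29 and 25.31 and lie above the Epi values of 0.16, 0.01 and 0.70, with the dashed line at an RPKM of 10.

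The study took a gene as a candidate of the CvP when its CvP RPKM was above 10 and its CvP/Epi ratio above 3. Of the 3 members 2 met both criteria, *Tas1r2* and *Tas1r3*, against 2.35% of all rows (435 of 18498). *Tas1r1* passed the ratio but had a CvP RPKM below 10. By the ratio alone, all 3 members exceeded 3, against 16.2% of the 12339 rows with a CvP RPKM of at least 1. In the CvP *Tas1r3* was number 2258 among all rows by RPKM, *Tas1r2* number 2862 and *Tas1r1* number 9297, so *Tas1r1* stood near the middle of the table. Among the rows that met both criteria *Tas1r3* was number 176 and *Tas1r2* number 220. In the Epi the order by RPKM was number 11168 for *Tas1r3*, 13227 for *Tas1r1* and 15816 for *Tas1r2*.

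The ratios can also be read against rows of a similar CvP level, within 1.5-fold of the member. Among 2452 such rows for *Tas1r2* the median ratio was 1.25, and 13 (0.53%) had a higher ratio than *Tas1r2*. For *Tas1r3* the median over 2083 rows was 1.22, with 37 (1.78%) higher. *Tas1r1* had 169 of 2509 rows (6.74%) higher, with a median of 1.73. Over the 10363 rows with an RPKM of at least 1 in both libraries the median ratio was 1.31. Divided by this median, the ratios of *Tas1r1*, *Tas1r2* and *Tas1r3* were 17.6, 1546 and 27.5.

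**Figure D2:**
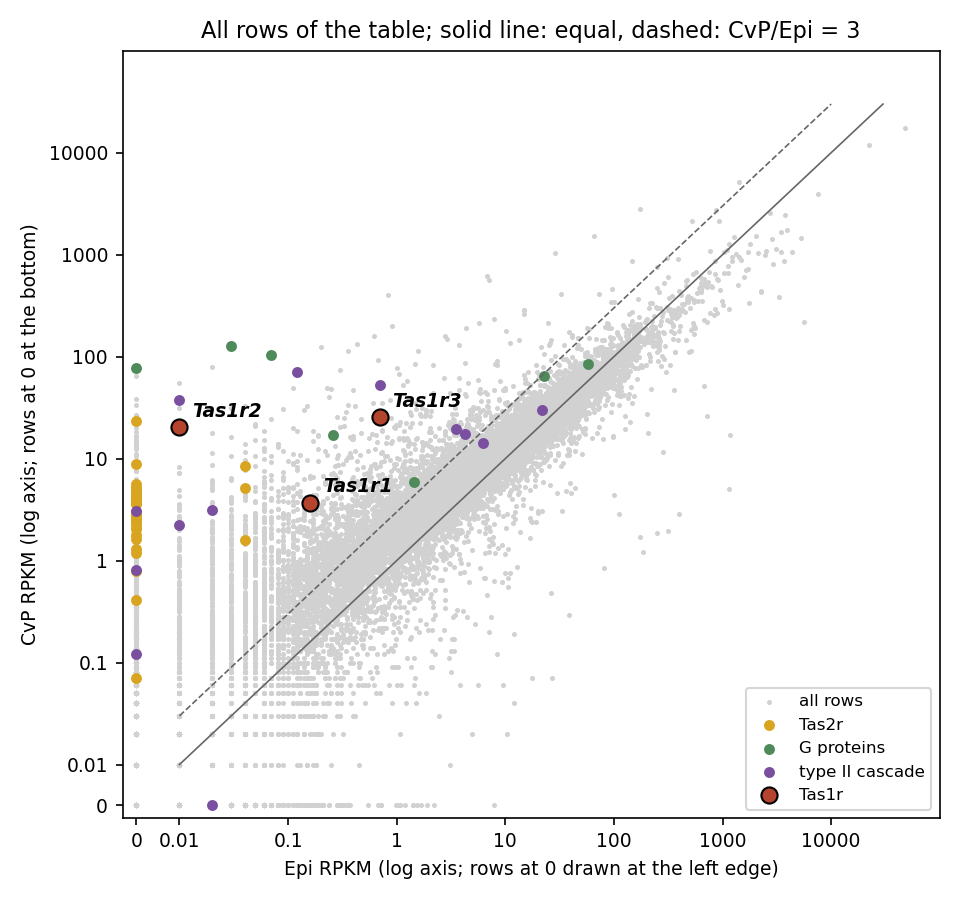
CvP RPKM against Epi RPKM (both log axes, values of 0 drawn at the edges) for all 18498 rows in grey, with the *Tas1r* genes (red), the *Tas2r* bitter receptors (yellow), the partner G proteins (green) and the type II cell cascade (purple). The 3 *Tas1r* points lie above the dashed line of a CvP/Epi ratio of 3, with *Tas1r2* at an Epi RPKM of 0.01, to the right of the rows at 0.

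RPKM is scaled by length, so levels can be compared between the members within a library. In the CvP the level of *Tas1r3* was 1.25 times that of *Tas1r2* (interval 1.17 to 1.33) and 6.86 times that of *Tas1r1* (6.07 to 7.76), and the level of *Tas1r2* was 5.50 times that of *Tas1r1* (4.85 to 6.24). The order in the papillae was therefore *Tas1r3*, *Tas1r2*, *Tas1r1*, with both neighbouring steps beyond counting error. Of the summed *Tas1r* RPKM of 49.29 in the CvP, *Tas1r3* held 51.4%, *Tas1r2* 41.2% and *Tas1r1* 7.49%. The level of the shared subunit was close to that of its partners added together, at 25.31 for *Tas1r3* and 23.98 for the sum of *Tas1r1* and *Tas1r2*, a quotient of 1.05 that was calculated after the values were seen. RNA levels do not say how much of each protein is made or paired.

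In the Epi the order was different. The level of *Tas1r3* was 4.38 times that of *Tas1r1* (2.44 to 9.22), and the level of *Tas1r1* was 16.0 times that of *Tas1r2* (1.94 to 561). Of a summed RPKM of 0.87, *Tas1r3* held 80.5%, *Tas1r1* 18.4% and *Tas1r2* 1.15%. The quotient of *Tas1r3* over the sum of the partners was 4.12 in the Epi. The shared subunit was thus above its partners there, at levels of which 1 read is worth an RPKM of 0.0102 to 0.0129.

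The length used for each gene bears on the order. The table lists 2.785 kb for *Tas1r1*, close to its annotated coding transcript of 2.863 kb, but 3.793 kb for *Tas1r2* and 4.341 kb for *Tas1r3*, which are 1.24 and 1.23 times their coding transcripts of 3.047 and 3.523 kb. The listed length of *Tas1r3* exceeds the 4084 bases that the gene spans in the table. With coding transcript lengths in place of the listed ones, the level of *Tas1r3* was 8.69 times and that of *Tas1r2* 7.04 times that of *Tas1r1* in the CvP, and *Tas1r3* over *Tas1r2* was 1.24. The order was the same with either length. Listed lengths above 1.2 times the coding transcript occurred in 46.4% of 16882 rows.

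The 3′ end of *Tas1r3* meets *Dvl1*, a gene of the Wnt pathway on the opposite strand, and their exons share 36 bases. The library preparation is not stated to keep the strand, so reads from the 2 genes in these bases cannot be told apart. *Dvl1* had an RPKM of 37.71 in the CvP against 17.96 in the Epi. At that density the shared bases would hold about 39 reads in the CvP against 18 in the Epi. Without them *Tas1r3* would have 2491 and 51 reads, and its ratio would be 48.0 (36.4 to 64.7). The reads that *Dvl1* could add are thus a small share of the CvP value of *Tas1r3* and a larger share of its Epi value, and whether such reads were counted was not tested.

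Most genes around the members differed less between the tissues. Within 400 kb of *Tas1r1* there were 18 other rows with a median log2 ratio of 0.28, on the scale of log2(RPKM + 0.1), where *Tas1r1* was at 3.87. Around *Tas1r2*, at 7.53, there were 9 rows with a median of 0.19, and around *Tas1r3*, at 4.99, there were 42 with a median of 0.45. The nearest rows of *Tas1r1* were *Zbtb48*, 242 bases away, at 4.44 in the CvP against 2.55 in the Epi, and *Nol9*, 836 bases away, at 7.45 and 6.29. Next to them lay *Klhl21* (13.77 and 20.11) and *Plekhg5* (8.11 and 3.11), so the genes on either side of the umami-specific subunit had ratios between 0.685 and 2.61. For *Tas1r2* the nearest rows were *Aldh4a1*, which encodes an enzyme of proline breakdown, at 11.73 and 10.30, *Iffo2* at 46.11 and 46.87, and *Pax7*, a transcription factor of muscle stem cells, at 0.02 in both libraries. The fourth, *Klhdc7a*, lay 291893 bases away, with an RPKM of 22.03 in the CvP against 0.05 in the Epi and a ratio of 441 (244 to 1015). On the other side of *Tas1r3* from *Dvl1* lay *Gltpd1* (17.11 and 27.41) and *Cpsf3l* (17.54 and 22.46), both lower in the CvP, and beyond *Dvl1* lay *Mxra8* at 0.22 and 0.35. A higher log2 ratio than that of the member was found once in the 3 neighbourhoods, for *Espn*, the gene of the actin-bundling protein espin, whose start lay at -113.7 kb from that of *Tas1r1*, counted along its strand. Its RPKM was 11.39 in the CvP against 0.37 in the Epi.

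**Figure D3:**
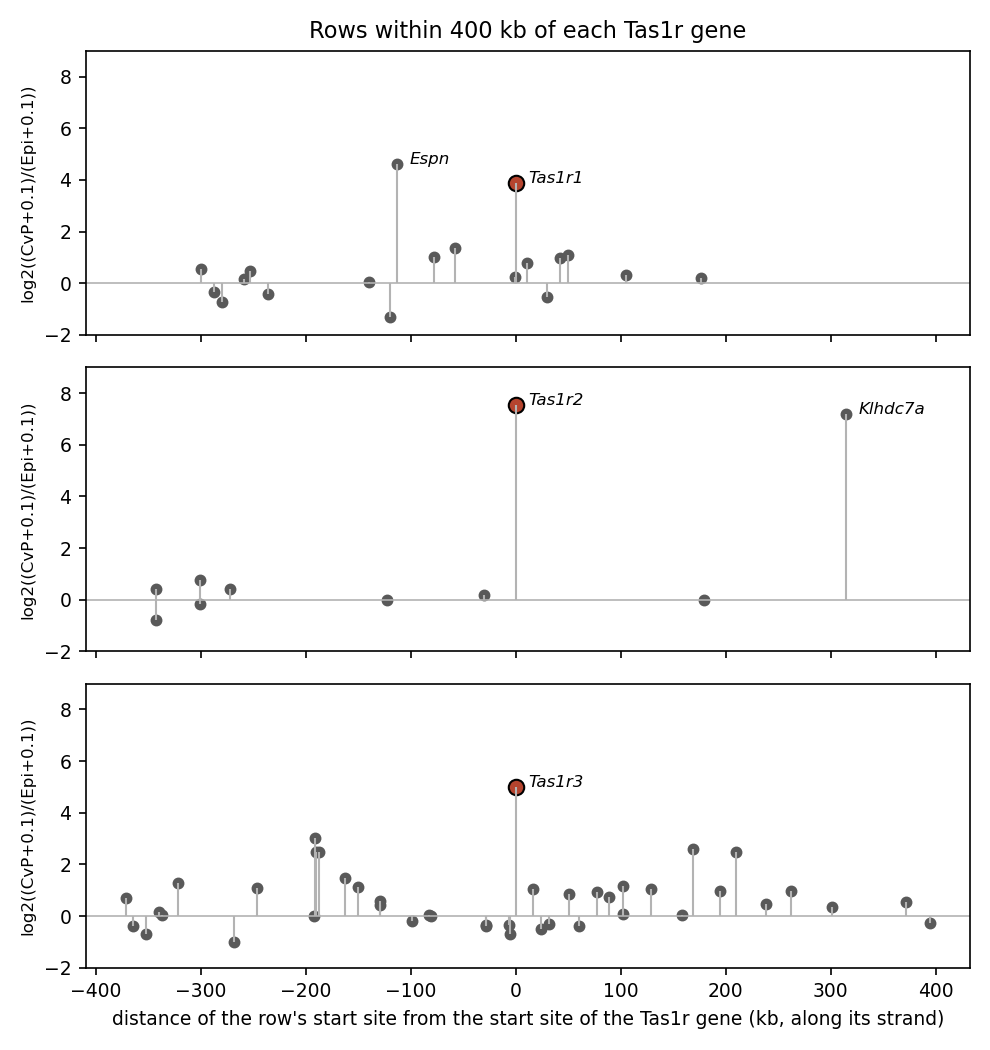
Difference between the tissues, log2 of CvP over Epi RPKM with 0.1 added to both, for every row within 400 kb of *Tas1r1*, *Tas1r2* and *Tas1r3*, against the distance of its start site from that of the member (kb). The members (red) stand at 3.87, 7.53 and 4.99, and *Espn* at 4.61 and *Klhdc7a* at 7.20 are the other rows above 4.

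The *Tas2r* genes, which encode the bitter receptors of other type II cells, give a second receptor family for comparison. In the CvP the 35 *Tas2r* rows had a median RPKM of 3.56, from 0.07 to 23.5 for *Tas2r118*, and their levels summed to 139.2, against 49.29 for the 3 *Tas1r* genes. *Tas2r107* (8.90) and *Tas2r126* (8.44) followed *Tas2r118*. None of the 35 rows was above *Tas1r3*, 1 was above *Tas1r2* and 16 were above *Tas1r1*, so *Tas1r1* was at a level usual for a single bitter receptor while the other two were near the highest. *Tas2r* genes have a single coding exon, and 23 of the 35 rows list a length over 1.2 times their span. If the RPKM used the listed lengths, the *Tas2r* levels in the CvP scaled by span summed to 342.6, with a median of 4.72 and a maximum of 142. On the same premise *Tas1r1*, *Tas1r2* and *Tas1r3* scaled by coding transcript stood at 3.59, 25.3 and 31.2. With these lengths 1 *Tas2r* row was above *Tas1r3*, 1 above *Tas1r2* and 21 above *Tas1r1*. These ranks set a span beside a coding transcript, which are unlike measures, and credit all reads of a longer listed length to the span. Whether reads fell outside the span was not tested, so the *Tas2r* levels scaled by span may be too high. In the Epi 32 of the 35 rows were listed at 0 and the sum was 0.12, below the 0.70 of *Tas1r3* and the 0.16 of *Tas1r1* alone. Reads shared among similar *Tas2r* copies were not examined. The median log2 ratio of the 32 rows with an RPKM of at least 1 was 5.24 with the pseudocount of 0.1 and 5.10 with rows listed at 0 in the Epi set to 3 reads.

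Of 7 partner G protein genes with a row, 5 had a ratio above 3 and 4 met both criteria, with a median log2 ratio of 5.58 against 0.50 over all 12549 rows that reach an RPKM of 1 in either library. *Gnat3*, the gustducin alpha subunit, was at 127.11 in the CvP against 0.03 in the Epi, a ratio of 4237 (820 to 180600) that rests on 1 Epi read. Its level was well above that of each *Tas1r* gene. *Gnb3* and *Gng13*, the beta and gamma subunits that join it, were at 104.07 and 77.39 in the CvP, and at 0.07 and listed at 0 in the Epi. *Gna14*, an alpha subunit of the Gq class, was at 17.12 and 0.26, a ratio of 65.8 (43.6 to 100.2). The widely expressed subunit genes *Gnb1* (83.82 and 57.30) and *Gnai2* (64.49 and 22.92) had ratios of 1.46 and 2.81. *Ric8b*, a chaperone of alpha subunits, was at 5.95 and 1.45.

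The cascade downstream of the receptors was read from 13 rows, of which 10 had a CvP RPKM of at least 1. Of these 8 had a ratio above 3, 5 met both criteria, and the median log2 ratio was 4.57. *Plcb2*, the phospholipase C of type II cells, was at 70.01 in the CvP against 0.12 in the Epi, and *Trpm5*, the cation channel, at 37.80 and 0.01, a ratio of 3780 (780 to 171800). Like *Tas1r2*, *Trpm5* had 1 estimated read in the Epi. *Atp2a3*, a calcium pump of the endoplasmic reticulum, was at 53.06 and 0.70, the same Epi level as *Tas1r3*. *Itpr3*, the receptor that releases calcium, was at 30.10 and 21.91, a ratio of 1.37 (1.33 to 1.42), so this member of the cascade was nearly as high in the Epi, unlike the receptors. *Pou2f3*, the transcription factor of type II cells, was at 19.50 and 3.49, *Panx1*, a channel that can pass ATP, at 17.33 and 4.24, and *Trpm4*, the relative of *Trpm5*, at 14.09 and 6.25. *Tmem163*, a zinc transporter, was at 3.11 and 0.02, and *Calhm1*, a subunit of the channel through which ATP leaves the cell, was at 3.03 in the CvP and listed at 0 in the Epi. The table's own annotation of the taste transduction pathway holds 59 rows. Leaving out *Tas1r* and *Tas2r*, 17 of 23 had a CvP RPKM of at least 1, of which 8 had a ratio above 3 and 5 met both criteria, with a median log2 ratio of 1.06.

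**Figure D4:**
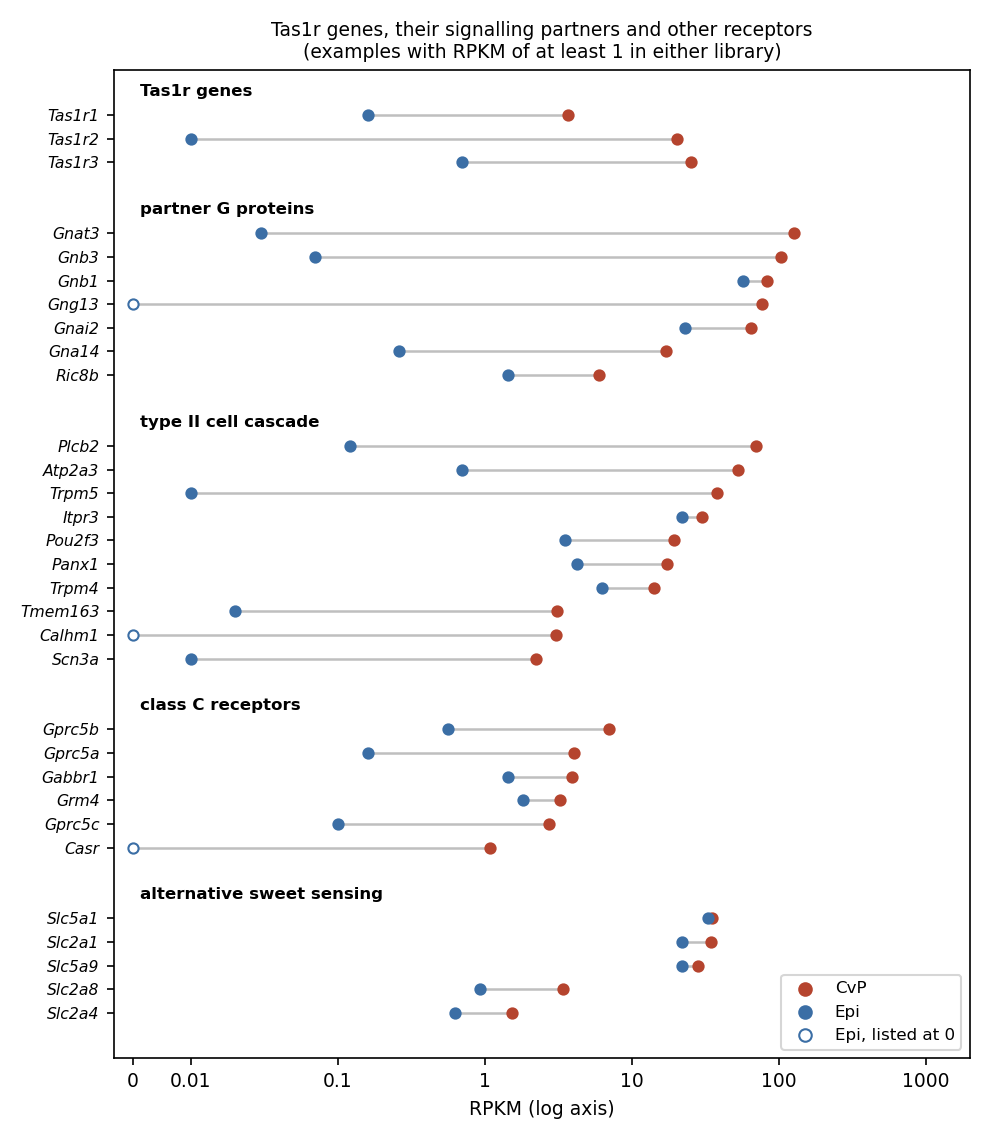
RPKM (log axis) in the CvP (red) and the Epi (blue, open where listed at 0) of the *Tas1r* genes, their partner G proteins, the type II cell cascade, other class C receptors and alternative sugar sensors, with examples that reach 1 in either library. Wide gaps are seen for *Tas1r2*, *Gnat3* and *Trpm5*, while *Itpr3* (30.10 and 21.91) and *Slc5a1* (34.93 and 33.26) have nearly equal levels.

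Sugar can also be sensed without T1R receptors, by glucose transporters and the ATP-sensitive potassium channel. Of 17 such genes with a row, 6 had a CvP RPKM of at least 1, 2 of these had a ratio above 3 and none met both criteria, and the median log2 ratio was 0.91. *Slc5a1*, the sodium-glucose cotransporter SGLT1, was at 34.93 in the CvP against 33.26 in the Epi, a ratio of 1.05 (1.01 to 1.10). *Slc2a1* (34.66 and 21.83), the glucose transporter GLUT1, and *Slc5a9* (28.44 and 21.87), a sodium-dependent sugar transporter, had levels of the order of *Tas1r2* and *Tas1r3* in the CvP, but high levels in the Epi as well. *Slc2a8* was at 3.42 and 0.93 and *Slc2a4* at 1.52 and 0.63. *Kcnj11* and *Abcc8*, the pore and the regulatory subunit of the potassium channel of pancreatic beta cells, were low in the CvP, at 0.64 and 0.46, and listed at 0 in the Epi.

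A list for alternative umami sensing had 10 genes other than T1R with a row, not all of which encode amino acid receptors. Of the 3 with a CvP RPKM of at least 1, *Lpar5* was at 14.17 in the CvP against 14.57 in the Epi, *Grm4*, a metabotropic glutamate receptor, at 3.25 and 1.81, and *Casr*, the calcium-sensing receptor, at 1.09 and listed at 0. The level of *Grm4* in the CvP was thus near the 3.69 of *Tas1r1*, with a ratio of 1.80 (1.52 to 2.12) against 23.1. The list's median log2 ratio was 0.81, 1 of the 3 genes had a ratio above 3, and no gene met both criteria. *Gprc6a* was listed at 0 in both libraries.

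Among 16 other class C receptor genes, the family to which T1R belongs, 6 had a CvP RPKM of at least 1. Of these 4 had a ratio above 3, none met both criteria, and the median log2 ratio was 3.51, or 3.63 with rows at 0 in the Epi set to 3 reads. *Gprc5b* was at 7.05 and 0.56, *Gprc5a* at 4.07 and 0.16, *Gprc5c* at 2.73 and 0.10, and *Gabbr1*, a subunit of the GABA-B receptor, at 3.94 and 1.44. *Gprc5a* was thus at nearly the levels of *Tas1r1* in both libraries, while no other class C row reached the CvP level of *Tas1r2* or *Tas1r3*.

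Genes that help receptors to the cell surface, the REEP, RTP and RAMP families, had 11 rows. Of 5 with a CvP RPKM of at least 1, 2 had a ratio above 3, none met both criteria, and the list's median log2 ratio was 0.64. *Reep4* (54.14 and 47.28), *Reep5* (40.08 and 25.76) and *Reep3* (21.43 and 12.12) were high in both libraries. *Reep6* (8.03 and 2.08) and *Rtp4* (4.95 and 1.34) had ratios of 3.86 and 3.69. *Reep2*, which is known to enhance sweet receptor function, was at 0.37 in the CvP against 0.02 in the Epi, about 19 reads and 1 read. Of 20 receptor and enzyme genes for hormone and transmitter signals in taste, 10 had a CvP RPKM of at least 1. Of these 3 had a ratio above 3 and 1 met both criteria, with a median log2 ratio of 0.88. That gene was *Entpd2* (54.83 and 4.53), an enzyme that degrades ATP in type I cells. *Nt5e* (22.03 and 14.15), *P2ry2* (19.56 and 16.00), *P2ry1* (10.67 and 7.45), the insulin receptor gene *Insr* (9.15 and 3.75) and the adenosine receptor gene *Adora2b* (8.89 and 4.04) had ratios between 1.22 and 2.44. *P2ry4* was lower in the CvP (5.82 and 11.47), and the oxytocin receptor gene *Oxtr* was at 2.64 and 0.05. The leptin receptor gene *Lepr* and the cannabinoid receptor gene *Cnr1*, whose products are known to modulate sweet responses, were near 0 in both libraries, at 0.06 and 0.04 and at 0.02 and 0.

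Rows with levels most like those of each member were found by Euclidean distance on log2(RPKM + 0.1) over the 2 libraries. For *Tas1r1* they were *Cdk14* (3.81 and 0.16), *Duox2*, *Muc1*, *Slco1a5* and *Gprc5a*, at distances of 0.045 to 0.138. *Tas1r2* was nearest to *A2m* (21.40 and 0.01), and its 5 nearest rows, at 0.0765 to 0.252, also held *Otop1*, a region with no gene listed as FAR26, and *Tas2r118*. *Otop1*, the proton channel of sour taste, marks type III cells, so a like pattern over these 2 values does not mean the same cells. For *Tas1r3* they were *Upp1* (25.14 and 0.89), *Gli1*, *Fbln2*, *Atp1b1* and *Cd14*, at 0.308 to 0.489. With 2 libraries many rows can have a similar pair of values.

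The labels of the tissues were checked against marker lists, whose part in the *Tas1r* values was not tested. Each list is given by its count and median log2 ratio and by some of its genes with the highest CvP RPKM, whichever way these differed. *Slc1a3* was added after values were seen. Counts of ratios above 3 are over genes with a CvP RPKM of at least 1, and counts of ratios below one over 3 are over genes that reach 1 in either library. Over all rows with these filters, 16.2% had a ratio above 3 and the median log2 ratio was 0.50. The share of all rows below one over 3 is not given here. Of the type III cell genes 12 of 13 had a ratio above 3 (median 5.61, or 6.42 with rows at 0 set to 3 reads), *Pkd1l3* (47.57 and 0.40) and *Otop1* (20.07 and listed at 0) included. Of the type I cell genes 4 of 6 had (median 3.88), with *Entpd2* (54.83 and 4.53) and *Kcnj1* (13.50 and listed at 0) among them. Lower in the CvP were *Gja1* (178.08 and 337.48) and *Slc1a3* (1.04 and 3.82, a ratio of 0.272). Of the taste progenitor genes 7 of 10 had a ratio above 3 (median 4.05), among them *Sox2* (81.98 and 19.11). *Krt5* was at 1505.71 and 1270.54, and *Krt14* was lower in the CvP (294.83 and 1140.2). Of the tuft and brush cell genes 5 of 8 had (median 3.12), with *Avil* (83.52 and 2.18) and *Vil1* (31.32 and 0.03) but not *Cd24a* (287.42 and 316.39). Of the immune genes 7 of 8 had (median 2.56), *Lyz2* (131.64 and 0.43) and *C1qb* (6.08 and 0.57) but not *Cd68* (10.81 and 4.45), and their summed level was 168.3 in the CvP against 8.50 in the Epi. Summed fibroblast genes stood at 50.05 and 134.1 (median 1.60), with *Dcn* at 26.07 and 127.62, *Fbln1* at 18.54 and 2.79 and *Vim* at 3.99 and 2.79. Of the glia and nerve genes 2 reached an RPKM of 1, *Mbp* (10.29 and 8.94) and *Nefl* (2.32 and listed at 0). A ratio below one over 3 was found in 5 of 9 genes of keratinized epithelium (median -1.85), in which *Krt13* was at 17548.78 and 47814.69, *Krt4* at 11800.96 and 22405.6 and *Rptn* at 1468.22 and 5290.31. It was found in 10 of 10 skeletal muscle genes (median -3.44), with *Tnni2* at 2.53 and 12.30, and in 7 of 10 salivary gland genes (median -4.85), with *Lipf* at 1.96 and 313.42, while the gland genes *Pigr* (12.01 and 0.54) and *Aqp5* (6.09 and 0.69) were higher in the CvP. The housekeeping median was 0.28, with *Rplp0* at 577.13 and 895.8 and *Actb* at 568.8 and 466.52.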

How the data were processed

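Poly(A)+ RNA of the CvP and the Epi was sequenced by the authors as 75-bp single-end reads, mapped with Bowtie 0.12.7 to NCBI37/mm9, and deposited as RPKM values obtained with ERANGE, with a gene length, position and pathway annotation per row. The authors' CvP/Epi ratio column was not used. The ERANGE options, the handling of reads with several matches and strandedness are not given in the sources used here.

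Ratios are quotients of the deposited RPKM, which are rounded, so a ratio over a very low Epi RPKM is approximate. No pseudocount was added unless stated (0.1 for medians of lists), and a pseudocount understates the difference of low genes. Mapped reads were estimated from the RPKM steps in rows of 0.1 kb (117 rows in the CvP and 112 in the Epi of 163). Reads per gene are approximate and were calculated with the listed length or that of the longest coding GENCODE M1 transcript, whichever was shorter. Ratios have 95% Clopper-Pearson intervals and levels exact Poisson intervals. With 1 library per tissue no test was made. Where 1 to 3 Epi reads stood behind a ratio, both limits are given, although the lower limit alone had been planned, and genes at 0 in the Epi were given no fold (floor of 3 reads). Alternatives were other pseudocounts, minimums, scalings and gene lengths. Depth and intervals were tested on simulated data.

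The members and gene lists were chosen with earlier results of these data known. The rule for the genes named takes up to 8 genes with a CvP RPKM of at least 1 from each list of partners, cascade, trafficking, other sensors, class C receptors and modulators, up to 3 of each other list, the 2 rows on either side of each member, and the 5 rows nearest in level. *Calhm1*, *Kcnj11*, *Abcc8*, *Gprc6a*, *Reep2*, *Lepr*, *Cnr1*, *Espn* and *Slc1a3* were named, and the pathway annotation used, after values were seen. Some listed genes count in the lists but are not reported here by name. Promoters are RefSeq sequences of GRCm38.p6. Python 3.11.15, numpy 2.4.6, pandas 2.3.3, scipy 1.17.1 and matplotlib 3.10.9 were used.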

Additional observations from a re-analysis of the deposited data

How the results depend on the processing

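No paired analysis was possible because 1 library was made per tissue, with no replicate numbers to pair, and no result has a test. Of 41 alternatives, 26 moved a result by less than its counting interval or kept a count within 1.5 times, 15 moved it further and none reversed it. The count of members meeting both criteria was 2 and could rise only to 3, which is 1.5 times, so no rise could be labelled as moved. Using the listed length in the CvP and the coding length in the Epi is no check either, since the same length cancels in a CvP/Epi ratio. The tally is therefore not a measure of how robust the results are. With a pseudocount of 1 the CvP/Epi ratios were 4.04 for *Tas1r1*, 21.1 for *Tas1r2* and 15.5 for *Tas1r3*, and with 0.1 that of *Tas1r2* was 185, the lowering being strongest for the smallest Epi level. *Tas1r3* was at 27.5 divided by the median ratio and 27.4 by the trimmed mean ratio. It was at 48.0 without the reads estimated for the bases shared with *Dvl1*, an alternative chosen after seeing the data. In the CvP, *Tas1r3* over *Tas1r1* was 8.69 with coding transcript lengths, if the RPKM used the listed ones, and 5.61 with a pseudocount of 1. In the same way *Tas1r2* over *Tas1r1* was 7.04 and 4.54. The median log2 ratio of the type II cell cascade was 6.46 and 2.01 with pseudocounts of 0.01 and 1, 3.19 over every member with a row and 4.18 after division by the median ratio. The members meeting both criteria were 2, or 3 at a minimum CvP RPKM of 1 or 3, with the ratio alone, or rescaled to a sum of 1000000. The Epi values of *Tas1r1* (12 reads) and *Tas1r2* (1 read) limit the precision of their ratios most.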
